A study of Mus musculus with 8 samples.

Results

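The genes described here encode the intermediate filament proteins of glia, neural progenitors and neurons, in cultured mouse astrocytes before and during transformation by an activated receptor. They were chosen by name, from a list of 8 symbols: Gfap, Vim, Nes, Synm, Nefl, Nefm, Ina and Des. Of these, 7 were among the 13607 genes of the deposited count table, and all 7 of those in the table were tested. Des, the gene for desmin, was not analysed here. Every gene of the table reached at least 1 CPM (a unit of level, a gene's counts scaled to the total of its library) in at least 2 libraries. Nefl and Ina were under that level in both control libraries and so passed it through the other groups. Counts over the 7 genes are therefore given as a description.

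RNA with polyA tails was sequenced from 8 libraries, in 4 groups of 2, lettered A and B. The astrocytes were on a C57BL/6J background and carried loxP-flanked alleles of Yap and Taz (Yap f/f;Taz f/f), in the controls as in every other group. Control astrocytes were not transformed and were kept without doxycycline; the sources used here do not give whether they carried the viral vectors. Cells of the HER2CA day 15 group had lentiviral, doxycycline-inducible HER2CA (an active form of the receptor HER2), together with rtTA and the tamoxifen-dependent recombinase CreERT2, and had been given doxycycline. Their labels list DMSO, while the treatment protocol calls cells without the drug untreated. The 4OH-TAM group had the same constructs and doxycycline plus 1 µM 4OH TAM for 15 days, which activates CreERT2. Gliomaspheres were passage P1 cultures of HER2CA cells, grown in suspension with doxycycline (DMSO in the label) and harvested 3 weeks after the start. All groups were fed EGF and bFGF in medium with N-2 supplement. Nothing in the labels tells whether A and B are separate cultures. The p-values therefore reflect the spread between these libraries alone, which may be technical.

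Libraries held 15517708 to 28231426 counts. The ribosomal transcript Rn45s took 36.1% of gliomaspheres B and 0.984% to 2.92% of the other libraries, so results on gliomaspheres are also given without library B. The counts of the targeted genes went against the 4OH-TAM label in part. Yap1 was at 101 and 103 CPM in HER2CA day 15 and at 107 and 103 CPM in the 4OH-TAM group (log2 fold change 0.04, SE 0.0682, edgeR adjusted p = 0.569). Wwtr1, which encodes TAZ, was at 194 and 210.3 CPM and at 123 and 122 CPM (log2 fold change −0.73, SE 0.0687, edgeR adjusted p = 1.25e-07). The loxP-flanked exons are not named in the sources used here, and a gene's total count also takes in exons outside the deletion. The group is therefore written as the 4OH-TAM-labelled libraries, and each direction drawn from it rests on that label.

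Intermediate filaments are rope-like polymers that give cells mechanical strength and differ from one cell type to the next. In the astrocyte lineage, immature cells build them from vimentin and nestin with synemin, and mature and reactive astrocytes add glial fibrillary acidic protein (GFAP). Neurons build theirs from α-internexin and the neurofilament subunits. Nestin and synemin cannot form filaments on their own and need a partner such as vimentin. In bulk RNA, fewer cells of a type and less RNA per cell cannot be told apart.

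Gfap and Nes were below controls in HER2CA day 15 and back above them in the 4OH-TAM-labelled libraries, while Ina was above controls in HER2CA day 15 and fell from there, so the promoters of these 3 genes are shown. The windows come from RefSeq on GRCm38.p6 and run from 250 bases before to 50 bases after the annotated start. They lie at chr11:102897151-102897450 on the minus strand (Gfap), chr3:87970843-87971142 on the plus strand (Nes) and chr19:47014431-47014730 on the plus strand (Ina). The Gfap gene model of GENCODE M21 begins upstream of its window, at 102900912 on the minus strand. Positions in the Gfap window therefore hold for the RefSeq start used here. Capitals mark a match to a searched motif.
Gfap promoter: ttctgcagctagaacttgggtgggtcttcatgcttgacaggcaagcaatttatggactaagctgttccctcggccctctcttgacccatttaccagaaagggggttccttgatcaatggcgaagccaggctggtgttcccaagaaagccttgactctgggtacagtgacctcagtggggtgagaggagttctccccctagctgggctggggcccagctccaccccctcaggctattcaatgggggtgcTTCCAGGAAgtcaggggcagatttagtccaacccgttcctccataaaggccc
Nes promoter: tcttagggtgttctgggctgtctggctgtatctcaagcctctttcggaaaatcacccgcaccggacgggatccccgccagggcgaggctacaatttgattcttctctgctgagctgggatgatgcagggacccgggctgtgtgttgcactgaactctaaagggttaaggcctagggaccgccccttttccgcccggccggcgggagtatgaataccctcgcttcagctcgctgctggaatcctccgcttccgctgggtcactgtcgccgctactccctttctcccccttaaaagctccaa
Ina promoter: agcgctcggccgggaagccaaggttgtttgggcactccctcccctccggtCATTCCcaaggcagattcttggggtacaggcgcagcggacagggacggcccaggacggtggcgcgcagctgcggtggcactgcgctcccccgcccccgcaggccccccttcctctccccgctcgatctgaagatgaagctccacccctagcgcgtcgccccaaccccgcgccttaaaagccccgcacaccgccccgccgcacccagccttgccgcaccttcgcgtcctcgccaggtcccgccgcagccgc
Both strands were searched for GGAATG, the core of sites for TEAD, the DNA-binding partner of YAP and TAZ, for TGANTCA, the AP-1 motif, and for TTCNNNGAA, the STAT motif. RefSeq windows were at hand for 5 of the 7 genes: Gfap, Vim, Nes, Synm and Ina. The STAT motif matched once, in Gfap, as TTCCAGGAA at positions −2 to 7 from the start (with no position 0). It matched 8.3% of all 32851 promoter windows. The TEAD core matched once, in Ina, as CATTCC at −200 to −195, and matched 14.7% of all windows. These matches did not overlap another searched motif. The AP-1 motif matched in 0 of the 5 windows and in 7.81% of all windows. The G+C content was 55.7% in the Gfap window, 58.7% in the Nes window and 71.7% in the Ina window, against a median of 52.7% over all windows. The number of CpG dinucleotides was 3, 18 and 32 in the same order, against a median of 7. Letters in a window are a description and show no binding.

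In the HER2CA day 15 libraries the glial and progenitor filament transcripts were lower than in controls, and the neuronal ones were higher. In the 4OH-TAM-labelled libraries the glial set was back at or above the control level, except Synm, and Nefl and Nefm were higher still. In gliomaspheres Gfap and Nes were above controls, Vim and Synm were below, and Nefl and Nefm were at their highest. Levels are given as CPM with library sizes scaled by edgeR's TMM factors. A gene counts as changed at a Benjamini-Hochberg adjusted p under 0.05 in edgeR's quasi-likelihood test, adjusted over all 13607 genes.

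**Figure D1:**
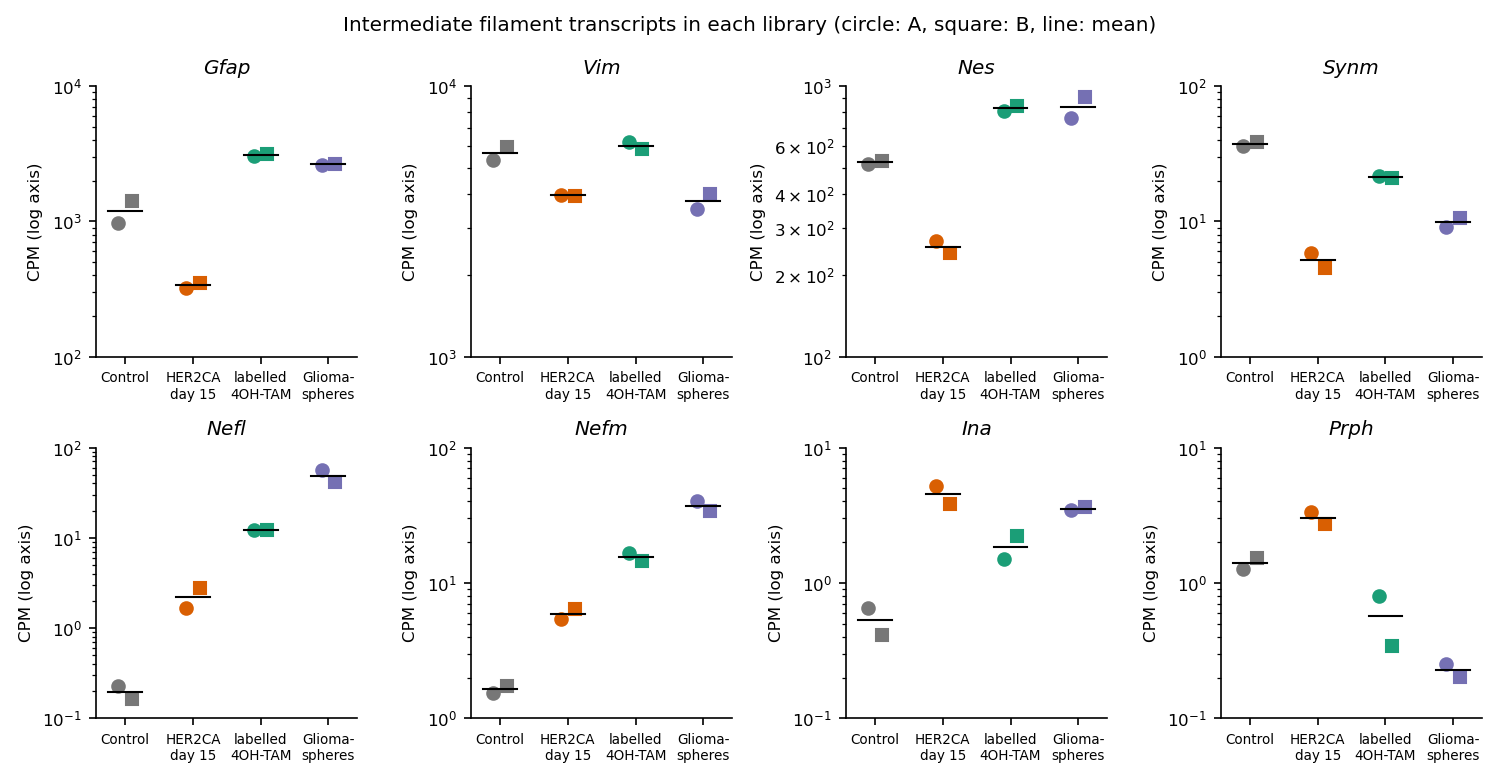
Level of each filament transcript in each library, in CPM on a log axis, for the 7 genes and for Prph, the related gene for peripherin. Circles are library A, squares library B and lines the group mean; Gfap, Nes and Synm were lowest in HER2CA day 15, and Nefl and Nefm rose from controls to gliomaspheres in steps that did not overlap.

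Gfap, the gene of the main astrocyte filament (GRCm38 chromosome 11, 102887336 to 102900912, minus strand), was at 975 and 1416 CPM in controls and at 324 and 349.5 CPM in HER2CA day 15. It was at 3027 and 3127 CPM in the 4OH-TAM-labelled libraries and at 2615 and 2660.3 CPM in gliomaspheres. No groups overlapped, and control A and B lay farthest apart, by 1.45-fold. Against controls, Gfap fell by 1.83 on the log2 scale in HER2CA day 15 (SE 0.131, edgeR adjusted p = 6.34e-09), a 3.55-fold lower level. Against HER2CA day 15 it was 9.14-fold higher in the 4OH-TAM-labelled libraries (log2 fold change 3.19, SE 0.138, adjusted p = 2.17e-11). It also passed the control level there, by 2.57-fold (log2 fold change 1.36, SE 0.129, adjusted p = 4.81e-07). Gliomaspheres were 2.21-fold above controls (log2 fold change 1.14, SE 0.128, adjusted p = 1.8e-06; 1.13 without library B). They were 7.84-fold above HER2CA day 15 (log2 fold change 2.97, SE 0.137, adjusted p = 2.6e-11; 3.00 without library B). The difference between gliomaspheres and the 4OH-TAM-labelled libraries was −0.22 (SE 0.127, adjusted p = 0.142; −0.25 and 0.121 without library B). That difference passed the threshold with upper-quartile factors (−0.31, adjusted p = 0.0431), without control A (−0.22, 0.0349) and without control B (−0.22, 0.0322).

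Vim encodes vimentin, the filament protein of immature astrocytes and of mesenchymal cells (chromosome 2, 13573927 to 13582826, plus strand). It was at 5353 and 5972 CPM in controls and at 3949.7 and 3936 CPM in HER2CA day 15. It was at 6187 and 5861 CPM in the 4OH-TAM-labelled libraries and at 3505 and 4008 CPM in gliomaspheres. The groups fell into a high pair, controls with the 4OH-TAM-labelled libraries, and a low pair, HER2CA day 15 with gliomaspheres, and overlapped within each pair. Vim fell by 0.52 in HER2CA day 15 against controls (SE 0.0936, edgeR adjusted p = 0.000121), a call lost with no scaling factors (−0.57, adjusted p = 0.118). It was 1.53-fold higher in the 4OH-TAM-labelled libraries than in HER2CA day 15 (log2 fold change 0.61, SE 0.0937, adjusted p = 2.34e-05). Gliomaspheres were below controls by −0.59 (SE 0.0937, adjusted p = 5.79e-05; −0.69 without library B) and below the 4OH-TAM-labelled libraries by −0.68 (SE 0.0938, adjusted p = 1.69e-05; −0.80 without library B). The neighbours in the order were not separated. The 4OH-TAM-labelled libraries differed from controls by 0.09 (SE 0.0933, adjusted p = 0.427), and gliomaspheres from HER2CA day 15 by −0.07 (SE 0.0933, adjusted p = 0.504; −0.13 and 0.222 without library B).

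Nes encodes nestin, the filament protein of neural stem and progenitor cells (chromosome 3, 87971078 to 87980451, plus strand). It was at 515 and 530.2 CPM in controls and at 269 and 241 CPM in HER2CA day 15. It was at 812 and 840.4 CPM in the 4OH-TAM-labelled libraries and at 762 and 912 CPM in gliomaspheres. HER2CA day 15 lay below every other library, and only the last pair of groups overlapped. Nes fell by 1.04 in HER2CA day 15 against controls (SE 0.0906, edgeR adjusted p = 6.05e-08), and was 3.24-fold higher in the 4OH-TAM-labelled libraries than in HER2CA day 15 (log2 fold change 1.70, SE 0.092, adjusted p = 2.45e-10). Against controls the 4OH-TAM-labelled libraries were higher by 0.66 (SE 0.0896, adjusted p = 1.8e-05), a call lost with no scaling factors (0.73, adjusted p = 0.0642). Gliomaspheres were higher than controls by 0.68 (SE 0.0898, adjusted p = 9.97e-06; 0.54 without library B), which was also lost with no scaling factors (0.32, adjusted p = 0.416). Against HER2CA day 15 they were higher by 1.72 (SE 0.0922, adjusted p = 1.6e-10; 1.62 without library B). Gliomaspheres and the 4OH-TAM-labelled libraries differed by 0.02 (SE 0.0893, adjusted p = 0.874), and by −0.14 without library B (adjusted p = 0.169).

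Synm encodes synemin, a large protein that joins vimentin and GFAP filaments and links them to other structures of the cell (chromosome 7, 67730160 to 67759742, minus strand). It was at 36.0 and 38.4 CPM in controls and at 5.87 and 4.52 CPM in HER2CA day 15. It was at 21.8 and 20.9 CPM in the 4OH-TAM-labelled libraries and at 9.09 and 10.6 CPM in gliomaspheres. Controls were highest and no groups overlapped. Synm fell by 2.85 in HER2CA day 15 against controls (SE 0.126, edgeR adjusted p = 3.18e-11), a 7.23-fold lower level and the largest decrease among the 7 genes in that comparison. It was 4.16-fold higher in the 4OH-TAM-labelled libraries than in HER2CA day 15 (log2 fold change 2.06, SE 0.129, adjusted p = 1.28e-09). It stayed below controls there by −0.80 (SE 0.106, adjusted p = 1.46e-05), a call lost with no scaling factors (−0.73, adjusted p = 0.0736). Gliomaspheres were below controls by −1.94 (SE 0.124, adjusted p = 3.44e-09; −2.03 without library B) and below the 4OH-TAM-labelled libraries by −1.14 (SE 0.127, adjusted p = 1.86e-06; −1.25 without library B). They were above HER2CA day 15 by 0.91 (SE 0.149, adjusted p = 4.34e-05; 0.87 without library B), which was lost with no scaling factors (0.63, adjusted p = 0.0841). Synm shares exon sequence with Ttc23 on the opposite strand, and without the strand setting of the counting their reads may not be separable. Ttc23 was higher in HER2CA day 15 than in controls, by 0.40 (SE 0.0949, adjusted p = 0.00146), where Synm was lower.

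Nefl encodes the light neurofilament subunit, the base of the neurofilament polymer (chromosome 14, 68083863 to 68089095, plus strand). It was at 0.230 and 0.165 CPM in controls, from 6 and 4 counts, and at 1.65 and 2.79 CPM in HER2CA day 15. It was at 12.2 and 12.3 CPM in the 4OH-TAM-labelled libraries and at 56.4 and 41.1 CPM in gliomaspheres. The groups rose in that order without overlap. Nefl was 11.2-fold higher in HER2CA day 15 than in controls (log2 fold change 3.49, SE 0.451, edgeR adjusted p = 4.52e-06). It was 5.34-fold higher in the 4OH-TAM-labelled libraries than in HER2CA day 15 (log2 fold change 2.42, SE 0.208, adjusted p = 4.3e-08), and 59.96-fold above controls (log2 fold change 5.91, SE 0.329, adjusted p = 2.29e-09). In gliomaspheres the log2 fold change against controls was 7.92 (SE 0.285, adjusted p = 8.54e-12; 8.11 without library B), the largest of any of the 7 genes in any comparison. Folds against controls rest on those 10 counts. Against HER2CA day 15 the gliomasphere value was 4.43 (SE 0.194, adjusted p = 1.49e-11; 4.66 without library B), and against the 4OH-TAM-labelled libraries it was 2.01 (SE 0.155, adjusted p = 3.59e-08; 2.18 without library B).

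Nefm encodes the medium neurofilament subunit, which assembles onto the light one (chromosome 14, 68082590 to 68124846, minus strand). It was at 1.54 and 1.73 CPM in controls and at 5.45 and 6.42 CPM in HER2CA day 15. It was at 16.6 and 14.6 CPM in the 4OH-TAM-labelled libraries and at 40.0 and 33.8 CPM in gliomaspheres. The order of the groups was that of Nefl, again without overlap. Nefm was 3.66-fold higher in HER2CA day 15 than in controls (log2 fold change 1.87, SE 0.189, edgeR adjusted p = 3.02e-07). It was 2.61-fold higher in the 4OH-TAM-labelled libraries than in HER2CA day 15 (log2 fold change 1.38, SE 0.136, adjusted p = 1.99e-07), and above controls there by 3.25 (SE 0.168, adjusted p = 1.02e-09). Gliomaspheres were above controls by 4.51 (SE 0.162, adjusted p = 8.54e-12; 4.61 without library B), above HER2CA day 15 by 2.64 (SE 0.134, adjusted p = 8.15e-11; 2.78 without library B) and above the 4OH-TAM-labelled libraries by 1.25 (SE 0.12, adjusted p = 3.79e-07; 1.34 without library B). In GENCODE M21 the Nefl gene lies inside the Nefm gene model, on the opposite strand, with exons that overlap, so the reads of these 2 genes may not be fully separable.

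Ina encodes α-internexin, a filament protein of developing neurons (chromosome 19, 47014698 to 47025327, plus strand). It was at 0.653 and 0.412 CPM in controls, from 17 and 10 counts, and at 5.22 and 3.83 CPM in HER2CA day 15. It was at 1.49 and 2.22 CPM in the 4OH-TAM-labelled libraries and at 3.44 and 3.64 CPM in gliomaspheres. Unlike Nefl and Nefm, it was highest in HER2CA day 15, and no groups overlapped. Ina was 8.27-fold higher in HER2CA day 15 than in controls (log2 fold change 3.05, SE 0.292, edgeR adjusted p = 1.66e-07). It was the only one of the 7 genes that was lower in the 4OH-TAM-labelled libraries than in HER2CA day 15, by −1.27 (SE 0.227, adjusted p = 0.00011). Those libraries stayed above controls by 1.78 (SE 0.338, adjusted p = 0.000378). Gliomaspheres were above controls by 2.70 (SE 0.322, adjusted p = 3.46e-06; 2.67 without library B) and differed from HER2CA day 15 by −0.35 (SE 0.224, adjusted p = 0.164; −0.34 and 0.242 without library B). They were above the 4OH-TAM-labelled libraries by 0.92 (SE 0.254, adjusted p = 0.00585; 0.87 and 0.0147 without library B). That last call was lost without library A labelled 4OH-TAM (0.66, adjusted p = 0.0664) and with no scaling factors (0.54, adjusted p = 0.252). Ina shares exon sequence with Nt5c2 on the opposite strand. Nt5c2 was higher in HER2CA day 15 than in controls, by 0.51 (SE 0.0957, edgeR adjusted p = 0.000201), as Ina was. It was higher in the 4OH-TAM-labelled libraries than in HER2CA day 15, by 0.43 (SE 0.0904, adjusted p = 0.000451), where Ina was lower. In gliomaspheres Nt5c2 was above controls by 1.44 (SE 0.095, adjusted p = 4.98e-09), as Ina was. It was also above the 4OH-TAM-labelled libraries there, by 0.51 (SE 0.0896, adjusted p = 0.000185), again as Ina was. Nt5c2 was at 14.0 to 38.3 CPM over all libraries, far above Ina, and the part of shared reads in the Ina values was not tested.

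**Figure D2:**
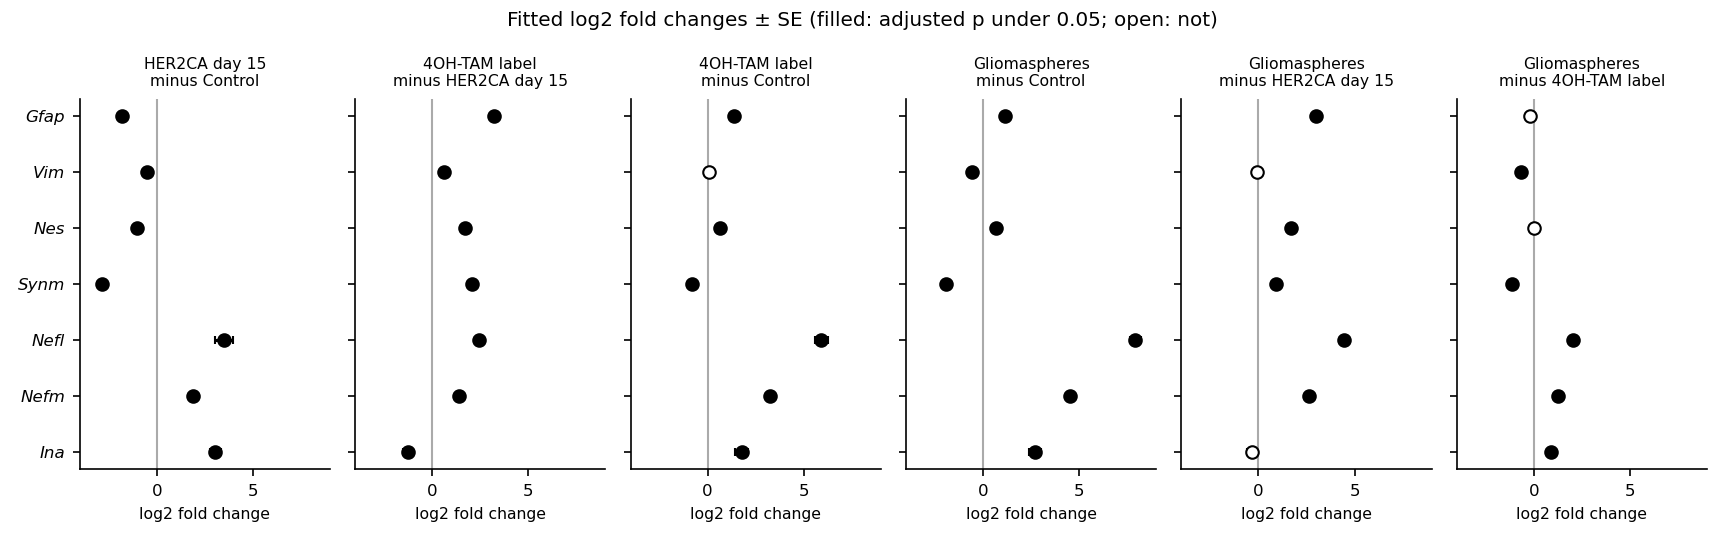
Fitted log2 fold change of each of the 7 genes in the 6 comparisons, with bars of 1 SE (hidden where smaller than the point), filled where the edgeR adjusted p was under 0.05. HER2CA day 15 against controls splits the genes by type, with the 4 glial and progenitor genes below 0 and the 3 neuronal genes above it. Of those 3, Nefl and Ina were under 1 CPM in both control libraries, so values above 0 against controls were favoured by that level. The 4OH-TAM-labelled libraries against HER2CA day 15 show 6 genes above 0 and Ina below it.

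Counted over the 7 genes, HER2CA day 15 against controls had 3 higher and 4 lower, where 37.3% and 38.4% of all genes were higher and lower. Their median log2 fold change was −0.52, and that of all genes −0.02. The 4OH-TAM-labelled libraries against HER2CA day 15 had 6 higher and 1 lower (all genes 40.8% and 39.7%), with a median of 1.70 (all genes 0.01). Against controls those libraries had 5 higher, 1 lower and 1 not past the threshold (all genes 31.0% and 28.2%), with a median of 1.36 (all genes 0.00). The gliomaspheres against controls had 5 higher and 2 lower (all genes 32.5% and 32.0%), with a median of 1.14 (all genes −0.01). Against HER2CA day 15 they had 5 higher, 0 lower and 2 not past it (all genes 38.4% and 40.4%), with a median of 1.72 (all genes −0.03). Against the 4OH-TAM-labelled libraries they had 3 higher, 2 lower and 2 not past it (all genes 31.3% and 29.7%), with a median of 0.02 (all genes 0.02). Without gliomaspheres B the calls of the 7 genes were the same in all 3 gliomasphere comparisons. The comparisons share libraries, so their values stand side by side and are not independent of each other.

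Levels of different genes were compared per length, as CPM per kilobase of summed exon length, ranked over the 13117 genes with a length. Vimentin led in every group, at 1194 ± 92.4 in controls, 831 ± 1.99 in HER2CA day 15, 1270.1 ± 48.7 in the 4OH-TAM-labelled libraries and 792 ± 75.03 in gliomaspheres (CPM per kilobase, SD, n = 2), ranks 3 to 13 in the single libraries. Gfap came next in every group. It ran from 79.8 ± 4.33 in HER2CA day 15 (ranks 459 to 503) to 729.6 ± 16.8 in the 4OH-TAM-labelled libraries (ranks 7 and 8). Nes came after Gfap in every group, from 39.7 ± 3.07 in HER2CA day 15 to 130.4 ± 16.6 in gliomaspheres. The other 4 genes were far lower. Nefl went from 0.0585 ± 0.0137 in controls (ranks 12810 to 12926) to 14.4 ± 3.20 in gliomaspheres (ranks 2921 to 3893). In controls the order below Nes was Synm, Nefm, Ina and Nefl, and in gliomaspheres it was Nefl, Nefm, Synm and Ina. Below Nes, the order in HER2CA day 15 and in the 4OH-TAM-labelled libraries depended on whether exon length or the longest transcript was used.

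The mix of filament transcripts within a library does not depend on library scaling. Of the summed level per kilobase of the 7 genes, Gfap made up 16.0% and 19.9% in controls, 8.03% and 8.69% in HER2CA day 15, 33.3% and 35.0% in the 4OH-TAM-labelled libraries and 41.2% and 38.5% in gliomaspheres. Gliomaspheres had the highest Gfap share, with a Gfap level that did not pass the test against the 4OH-TAM-labelled libraries and a Vim level below theirs. The ratio of Gfap to Vim was 0.205 and 0.267 in controls, 0.0921 and 0.0998 in HER2CA day 15, 0.550 and 0.600 in the 4OH-TAM-labelled libraries, and 0.839 and 0.746 in gliomaspheres. The groups did not overlap in either measure. Together Nefl, Nefm and Ina made up 0.0282% to 0.0370% in controls and 1.17% to 1.64% in gliomaspheres. That share was nearly equal in HER2CA day 15 (0.319% to 0.327%) and in the 4OH-TAM-labelled libraries (0.321% to 0.323%), but its composition differed. In HER2CA day 15 Ina alone made up 0.124% to 0.169%, and in the 4OH-TAM-labelled libraries 0.0214% to 0.0323%. The ratio of Nefl to Nefm was 0.163 to 0.257 in controls, 0.518 to 0.745 in HER2CA day 15, 1.25 to 1.44 in the 4OH-TAM-labelled libraries and 2.08 to 2.41 in gliomaspheres. Per length of the longest transcript, a choice added after the data were seen, that ratio was 0.104 to 0.163, 0.329 to 0.474, 0.798 to 0.917 and 1.32 to 1.54 in the same order. The groups kept their order, but in the 4OH-TAM-labelled libraries Nefl was above Nefm by one length and below it by the other.

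**Figure D3:**
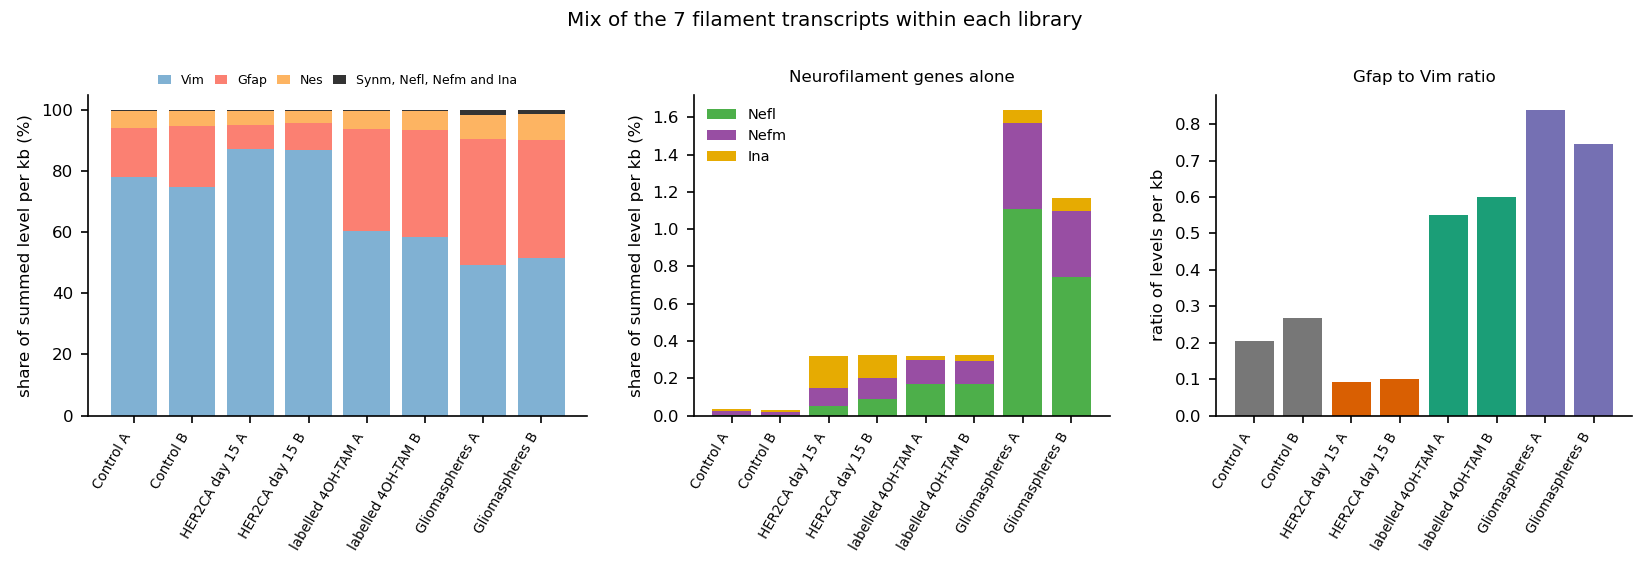
Make-up of the filament transcripts of each library, as bars from 0 in percent of the summed level per kilobase (left, all 7 genes; middle, Nefl, Nefm and Ina alone) and as the ratio of the Gfap to the Vim level per kilobase (right). The Gfap part is smallest in HER2CA day 15 and largest in gliomaspheres, and Ina fills much of the neuronal part in HER2CA day 15 while Nefl leads in gliomaspheres.

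The genes with the most similar profiles were sought over the 8 libraries, by the root mean square difference between centred log2(CPM + 0.5) values, among 10818 genes with a mean of at least 5 CPM. For Gfap they were Cd200 (difference 0.120), Ccdc85a (0.122) and Kcne1l (0.148). For Vim they were Bcl6 (0.0646), Tpra1 (0.0669) and Slc44a2 (0.0712), and for Nes Ppt1 (0.0589), Spats2l (0.0907) and Adcy5 (0.103). Synm was closest to Rab3d (0.153), Gng4 (0.164) and Cercam (0.174). The nearest profiles to Nefm were Ret (0.137), Zcchc12 (0.392) and Alpl (0.402), and those to Nefl were Bex2 (0.665), Ret (0.742) and Mcm5 (0.786). By this measure no gene came as near to Nefl as the nearest ones did to the other genes. The measure grows with the size of a gene's changes, which were largest for Nefl. Ret and Nefl correlated at 0.998 over the 8 libraries. Ina was closest to Tra2b (0.234), Tra2a (0.246) and Myc (0.258). These are descriptions of 8 libraries that share 4 groups.

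Marker genes of cell types moved with these groups, and their part in the results was not tested. The summed level of 11 of 12 astrocyte markers was 7904 to 8869 CPM in controls, 2979 to 3110 CPM in HER2CA day 15, 11093 to 11282 CPM in the 4OH-TAM-labelled libraries and 10221 to 11232.5 CPM in gliomaspheres. It was thus lowest where Gfap was lowest. In HER2CA day 15 against controls 10 of the 11 were lower and 1 did not pass the threshold, and in the 4OH-TAM-labelled libraries against HER2CA day 15 all 11 were higher. Gjb6 was not analysed here, and none of the 7 filament genes is in these marker lists. Of 15 neuron markers 12 were measured, without Rbfox3, Snap25 and Syt1. They summed to 521 to 537 CPM in controls, 214 to 217 CPM in HER2CA day 15, 528 to 537 CPM in the 4OH-TAM-labelled libraries and 869 to 878 CPM in gliomaspheres, so the neuron sum was lowest in HER2CA day 15, where Nefl, Nefm and Ina were all above controls. There 1 of the 12 was higher than in controls and 8 were lower. Map2 and Mapt led the sum in controls, at 292 and 295 CPM and at 139 and 149.8 CPM, and the sum hid changes of single markers. In the 4OH-TAM-labelled libraries 10 of the 12 were higher and 1 lower than in HER2CA day 15, and 6 were higher and 3 lower than in controls. In gliomaspheres 8 were higher and 3 lower than in controls. Tubb3, a tubulin of neurons, was above controls by 3.09 in the 4OH-TAM-labelled libraries (edgeR adjusted p = 4.17e-09), and Syp, a protein of synaptic vesicles, by 2.42 (adjusted p = 1.6e-07), where Nefl and Nefm were also above controls. The 3 neuron markers below controls in those libraries were Slc17a7 (−1.49, adjusted p = 0.000318), Gad1 (−1.33, adjusted p = 1.22e-06) and Mapt (−0.55, adjusted p = 3.37e-05). Dcx, a marker of young neurons, was at 0 in both HER2CA day 15 libraries and in control A, at 0.0412 CPM in control B, and at 2.64 to 3.25 CPM in the other 2 groups. The 9 measured of 10 oligodendrocyte-lineage markers summed to 468 to 506 CPM, 110 to 119 CPM, 908 to 952 CPM and 2995 to 3306 CPM in the same group order. Olig1 led the sum in gliomaspheres, at 2362 and 2156 CPM. Against the 4OH-TAM-labelled libraries, 3 of the 9 were higher and 3 lower in gliomaspheres (all genes 31.3% and 29.7%). The 9 of 10 microglia markers stood at 952 to 980.3 CPM in the 4OH-TAM-labelled libraries and at 79.1 to 128 CPM elsewhere. Markers of fibroblasts (7 of 8), cells that also make vimentin, summed to 4888 to 4972 CPM, 3657 to 3939 CPM, 1521 to 1689 CPM and 1480.3 to 1624 CPM, although 5 of the 7 were higher and 2 lower in the 4OH-TAM-labelled libraries than in HER2CA day 15. Markers of smooth muscle, pericytes and muscle (7 of 16), cells in which synemin is also found, summed to 330.2 to 388 CPM, 294 CPM in both HER2CA day 15 libraries, 149 to 174 CPM and 40.4 CPM in both gliomaspheres. Acta2 led that sum in HER2CA day 15, at 240 and 236 CPM, and was at 64.8 and 52.3 CPM in the 4OH-TAM-labelled libraries. Of the 7 markers, 4 were higher and 1 lower in the 4OH-TAM-labelled libraries than in HER2CA day 15. The 7 neural stem and progenitor markers summed to 711 to 716 CPM, 843 to 848 CPM, 736 to 763 CPM and 1166 to 1243 CPM, a sum led by Sox2 in HER2CA day 15, where 6 of the 7 were lower than in controls and 1 higher. The 2 of 6 endothelial markers measured were at 3.00 to 38.4 CPM over all libraries. Beside these marker counts, 37.3% of all genes were higher and 38.4% lower in HER2CA day 15 than in controls. For the 4OH-TAM-labelled libraries the shares were 40.8% and 39.7% against HER2CA day 15, and 31.0% and 28.2% against controls. For gliomaspheres against controls they were 32.5% and 32.0%.

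The other cytoplasmic intermediate filament genes were sparse, with 4 of 18 listed in the table: Prph, Sync, Bfsp2 and Krt10. In HER2CA day 15 against controls 1 was higher and 2 lower (median −1.48), in the 4OH-TAM-labelled libraries against HER2CA day 15 2 were higher and 1 lower (median 1.28), and in gliomaspheres against controls 2 were higher and 2 lower (median −0.79; 1 and 2 without library B). The shares of all genes higher and lower were 37.3% and 38.4%, 40.8% and 39.7%, and 32.5% and 32.0% in these comparisons. Prph encodes peripherin, a filament protein of peripheral neurons. It was at 1.27 and 1.52 CPM in controls, 3.35 and 2.73 CPM in the HER2CA day 15 libraries, 0.804 and 0.344 CPM in the 4OH-TAM-labelled libraries, and 0.251 and 0.202 CPM in gliomaspheres. It was thus high in HER2CA day 15, as Ina was, and low in the groups where Nefl and Nefm were high. Prph rose by 1.11 in HER2CA day 15 against controls (SE 0.255, edgeR adjusted p = 0.00105) and was lower in the 4OH-TAM-labelled libraries than in HER2CA day 15 by −2.38 (SE 0.301, adjusted p = 3.19e-06). In gliomaspheres it was below controls by −2.53 (SE 0.483, adjusted p = 0.000321; −2.45 without library B). Sync, which encodes syncoilin, a filament-related protein of muscle, fell by 2.43 in HER2CA day 15 (SE 0.138, adjusted p = 4.77e-10) and rose by 2.40 in the 4OH-TAM-labelled libraries against it (SE 0.138, adjusted p = 5e-10). It was lower in gliomaspheres than in controls by −2.06 (SE 0.144, adjusted p = 1e-08; −1.97 without library B). Bfsp2, known from the lens, fell by 4.30 and rose by 3.81 in the first 2 of these comparisons (SE 0.31 and 0.329, adjusted p = 6.89e-09 and 4.5e-08), from 0.183 and 0.207 CPM in HER2CA day 15. The keratin Krt10 passed the threshold only in gliomaspheres against controls among these 3 comparisons, by 1.28 (SE 0.261, adjusted p = 0.000559; 1.26 without library B).

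Linkers, chaperones and turnover factors of intermediate filaments changed in both directions. Of 15 measured, 8 were higher and 6 lower in HER2CA day 15 than in controls (median 0.38), 5 higher and 6 lower in the 4OH-TAM-labelled libraries than in HER2CA day 15 (median −0.08), and 3 higher and 6 lower in gliomaspheres than in controls (median −0.13; 3 and 8 without library B). The shares of all genes higher and lower were 37.3% and 38.4%, 40.8% and 39.7%, and 32.5% and 32.0% in the same order of comparisons. With no scaling factors the second of the list counts was 4 higher and 3 lower, and the last was 0 higher and 5 lower. The genes of the small heat shock proteins that bind glial filaments, Cryab and Hspb1, were lower than controls and past the threshold in all 3 other groups. Cryab, which encodes αB-crystallin, was at 601 and 624 CPM in controls, 163 and 164 CPM in the HER2CA day 15 libraries, 190.4 and 162 CPM in the 4OH-TAM-labelled libraries, and 77.99 and 93.5 CPM in gliomaspheres. It fell by 1.91 in HER2CA day 15 (SE 0.0935, edgeR adjusted p = 1e-10) and by 2.85 in gliomaspheres (SE 0.0989, adjusted p = 6.76e-12; −2.97 without library B). It did not follow Gfap in the 4OH-TAM-labelled libraries, where its difference from HER2CA day 15 was 0.11 (SE 0.0915, adjusted p = 0.28). Hspb1 was at 41.4 and 35.9 CPM in controls and at 2.21 to 6.97 CPM elsewhere. In the 4OH-TAM-labelled libraries it was higher than in HER2CA day 15, as Gfap was, by 1.42 (SE 0.185, edgeR adjusted p = 4.39e-06). It fell by 3.92 in HER2CA day 15 (SE 0.163, adjusted p = 1.71e-11) and by 2.93 in gliomaspheres (SE 0.158, adjusted p = 5.26e-10; −2.77 without library B). Myo5a, a motor that carries neurofilaments, was lower in the 4OH-TAM-labelled libraries than in HER2CA day 15 by −1.26 (SE 0.0735, adjusted p = 5.49e-10), and Ppl, which encodes the linker periplakin, was higher by 1.42 (SE 0.131, adjusted p = 9.56e-08).

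Factors known to act on filament genes, such as the receptors and STAT and SMAD factors of gliogenic signalling, NFI and SOX factors and the Notch pathway, were measured for 23 of 24 listed. In HER2CA day 15 against controls 5 were higher and 11 lower (median −0.16), and in the 4OH-TAM-labelled libraries against HER2CA day 15 13 were higher and 5 lower (median 0.24). In gliomaspheres against controls 13 were higher and 6 lower (median 0.36; 13 and 5 without library B). Of all genes, 37.3% were higher and 38.4% lower in the first of these comparisons, 40.8% and 39.7% in the next, and 32.5% and 32.0% in the last. With no scaling factors the list counts were 3 higher and 7 lower, 7 higher and 1 lower, and 2 higher and 2 lower in these 3 comparisons. Lifr, a receptor subunit for cytokines that turn on Gfap, was at 55.1 and 50.1 CPM in controls, 11.8 and 12.2 CPM in the HER2CA day 15 libraries and 40.8 and 38.9 CPM in the 4OH-TAM-labelled libraries. It fell by 2.13 in HER2CA day 15 (SE 0.126, edgeR adjusted p = 7.33e-10). Cntfr, another receptor subunit of the same cytokine pathway, moved as Lifr did. It was lower in HER2CA day 15 than in controls by −1.01 (SE 0.126, edgeR adjusted p = 3e-06). In the 4OH-TAM-labelled libraries it was higher than in HER2CA day 15 by 0.49 (SE 0.13, adjusted p = 0.00303). Stat3 and Il6st went the other way. Stat3, the factor this pathway activates, was higher in HER2CA day 15 than in controls by 0.85 (SE 0.0678, adjusted p = 2.22e-08). Il6st, the partner subunit of the receptor, was higher by 0.69 (SE 0.0704, adjusted p = 3.68e-07), a call lost with no scaling factors (0.63, adjusted p = 0.0659). In the 4OH-TAM-labelled libraries against HER2CA day 15 both were lower, Stat3 by −0.24 (SE 0.067, adjusted p = 0.00383) and Il6st by −0.39 (SE 0.0701, adjusted p = 0.000102). The Stat3 call was lost with upper-quartile factors (−0.04, adjusted p = 0.639), with no scaling factors (−0.12, adjusted p = 0.757) and without library A labelled 4OH-TAM (−0.21, adjusted p = 0.0542), and that of Il6st with no scaling factors (−0.27, adjusted p = 0.457). Smad9, a mediator of BMP signals, fell by 2.11 in HER2CA day 15 against controls (SE 0.137, adjusted p = 1.99e-09). It was higher by 2.59 in the 4OH-TAM-labelled libraries than in HER2CA day 15 (SE 0.134, adjusted p = 1.49e-10). Sox2, a progenitor factor, was lower in the 4OH-TAM-labelled libraries than in HER2CA day 15 by −1.28 (SE 0.0761, adjusted p = 7.11e-10), from 729 and 728.5 CPM to 295 and 307 CPM. In gliomaspheres the Notch target Hes1 was above controls (log2 fold change 2.09, SE 0.156, edgeR adjusted p = 2.12e-08, and 1.91 without library B). Hes5, another Notch target, was also above controls (3.98, SE 0.262, adjusted p = 4.99e-09, and 4.04 without library B). Hes5 was at 5.95 and 5.36 CPM in gliomaspheres and at 0.137 to 0.803 CPM elsewhere. It passed the 1 CPM level of the table only through gliomaspheres, so a higher level there was favoured in advance.

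**Figure D4:**
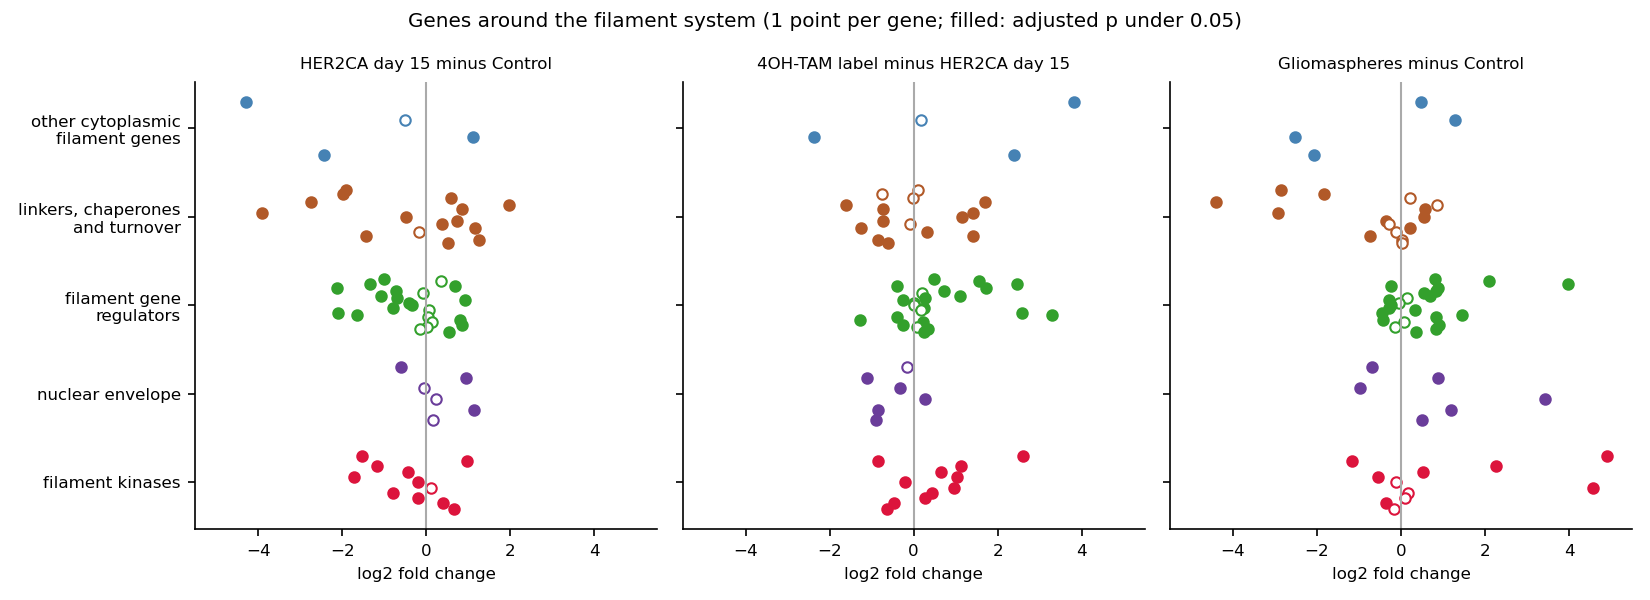
Log2 fold changes of the genes around the filament system in 3 comparisons, 1 point per gene and a row for each list, filled where the edgeR adjusted p was under 0.05. Each list has points on both sides of 0 in every comparison. In HER2CA day 15 against controls 11 of 23 regulators lie below 0 and past the threshold and 5 above (all genes 38.4% and 37.3%). In the 4OH-TAM-labelled libraries against HER2CA day 15 13 lie above and 5 below (all genes 40.8% and 39.7%).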

How the data were processed

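Polyadenylated RNA from 8 libraries was prepared with a stranded mRNA kit, per the labels' protocols. The authors deposited whole-number read counts per gene symbol, with no normalisation seen in the values. FastQC, STAR 2.5.3a, featureCounts, mm10 and GRCm38 are the tools and builds listed in the submitters' processing notes, with no statement of their use. No source used here gives the strand setting of the counting, so genes that overlap on opposite strands may share reads. Each of the 13607 genes held at least 1 CPM in 2 libraries. A gene under that level in a whole group passed it through other groups, which favours a difference from that group.

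The deposited counts went into edgeR 4.0.16 (R 4.3.3, limma 3.58.1), where filterByExpr removed no gene, TMM gave the scaling factors and a mean for each group was fitted over all 8 libraries. This left 4 residual degrees of freedom, and the common dispersion corresponded to a coefficient of variation of 0.0685. Each of the 6 comparisons used glmQLFTest, with p-values adjusted by Benjamini-Hochberg across the 13607 genes and a threshold of 0.05. An SE is the size of a log2 fold change over the square root of its F. The model was also run on counts simulated with the spread fitted to these data. Such counts cannot tell whether that spread holds for separate cultures. Chi-square per degree of freedom between libraries A and B was 4.05 to 733, or 4.02 to 21.8 with Rn45s and Lars2 left out, above sampling noise for every pair. Alternatives were other scaling factors, filters, a 1.5-fold threshold test, DESeq2 1.42.0, a smaller set of samples, a replicate block and each library left out. Gene lengths and positions come from GENCODE M21 (GRCm38), which matched 96.4% of symbols, and promoters from RefSeq.

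The genes and lists were chosen with earlier results of these data known. The rule names the 8 members, the 3 nearest profiles to each, Yap1, Wwtr1 and the 2 genes with the lowest p of each list in a comparison. Other values of these genes, and Prph, Krt10, Stat3, Il6st, Cntfr, Map2, Mapt, Tubb3, Syp, Slc17a7, Gad1, Ttc23, Nt5c2, Dcx and Rn45s, were added after the values were seen.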

Additional observations from a re-analysis of the deposited data

How the results depend on the processing

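Over 18 alternatives, the 42 log2 fold changes of the 7 genes gave 750 values, of which 725 kept their direction and their side of the threshold, 14 lost the call, 3 gained it and 8 changed sign, the last all without a call. The 1.5-fold test accounted for 7 of the lost calls. Every Vim call was lost there, as were those of Nes in the 4OH-TAM-labelled libraries and in gliomaspheres against controls. The call of Ina between gliomaspheres and the 4OH-TAM-labelled libraries was lost there too. The filter of 5 CPM left no value for Ina. The sign changes were in gliomaspheres. Vim against HER2CA day 15 was 0.0445 with upper-quartile factors and −0.13 to 0.0237 with a library left out. Nes against the 4OH-TAM-labelled libraries was −0.0743 with upper-quartile factors, −0.41 with no scaling factors, −1e-04 without Rn45s and Lars2, −0.0016 with the 5 CPM filter and −0.14 to 0.14 with a library left out. In the 1.5-fold test 3 of the 7 genes passed between gliomaspheres and the 4OH-TAM-labelled libraries, and 4 to 6 with a library left out. The other 5 comparisons kept their count of the 7 genes with any library left out. In the order of the 6 comparisons above, the genes past the threshold were 5456, 6071, 2417, 3393, 6237 and 3025 in the 1.5-fold test, which asks for a larger change. With no scaling factors they were 5890, 6375, 2654 and 4646 in the first 4 comparisons and 4199 in the last; the cause was not tested. Higher calls as a share of all calls went with no scaling factors from 49.3% to 39.1%, from 50.7% to 68.0%, from 52.4% to 79.7%, from 50.4% to 29.8% and from 51.3% to 17.8% in the same 5 comparisons, and to 61.5% with upper-quartile factors in comparison 2. Upper-quartile factors moved the median of all genes by −0.16, 0.21 and 0.12 in comparisons 1, 2 and 5, and no scaling factors moved it by 0.12, −0.32, −0.27 and −0.39 in comparison 2 and the last 3. Between groups, the deviations of the A libraries from their group means correlated at −0.03 to 0.07, so no effect shared by letter was seen. These values cannot tell whether libraries of the same letter share a culture or a preparation. With the letter as a replicate block the counts were 10300, 10948, 8072, 8761, 10704 and 8267 genes, and 7, 7, 6, 7, 5 and 5 of the 7 genes, with all 42 calls kept. For the lists, where the same alternatives were chosen after seeing the data, 717 of 729 values of named genes kept their call and direction, 11 lost the call (all for Stat3 or Il6st), and Krt10 in the 4OH-TAM-labelled libraries against HER2CA day 15 was −0.28 to 0.5122 with a library left out, −0.28 without library A of the former. Of 270 list counts, 20 moved by over 1.5 times, under no scaling factors, the 1.5-fold test or the 5 CPM filter. The 6 and 4 counts of Nefl and 17 and 10 of Ina in controls limit the precision of their folds.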

Other observations

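The nuclear intermediate filaments, the lamins, and the envelope proteins that hold them were also measured, 6 of 6 listed. In gliomaspheres against controls 4 were higher and 2 lower (median 0.69; 4 and 2 without library B). Lmnb1, which encodes lamin B1, was at 9.98 and 10.3 CPM in controls, 12.6 and 11.2 CPM in the HER2CA day 15 libraries, 12.6 and 16.0 CPM in the 4OH-TAM-labelled libraries, and 107 and 109.8 CPM in gliomaspheres, a log2 fold change of 3.42 against controls (SE 0.11, edgeR adjusted p = 2.9e-12; 3.40 without library B). Lmna, the gene of the A-type lamins, went the other way, from 142 and 151.5 CPM in controls to 78.2 and 70.9 CPM in gliomaspheres (log2 fold change −0.97, SE 0.0749, adjusted p = 3.03e-08; −0.91 without library B). In HER2CA day 15 against controls 2 were higher and 1 lower. Lmnb2 was higher by 1.13 (SE 0.103, adjusted p = 8.75e-08) and the lamin B receptor gene Lbr by 0.94 (SE 0.123, adjusted p = 5.59e-06). Both were lower in the 4OH-TAM-labelled libraries than in HER2CA day 15, as was Tmpo, and of the 6 genes 1 was higher and 4 lower in that comparison (0 and 3 with no scaling factors). Of all genes, 40.8% were higher and 39.7% lower there. The shares were 37.3% and 38.4% in HER2CA day 15 against controls, and 32.5% and 32.0% in gliomaspheres against controls.

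Kinases known to phosphorylate intermediate filaments were all measured (11 of 11). In HER2CA day 15 against controls 3 were higher and 7 lower, in the 4OH-TAM-labelled libraries against HER2CA day 15 7 were higher and 4 lower, and in gliomaspheres against controls 4 were higher and 3 lower, a split that held without library B. The shares of all genes higher and lower were 37.3% and 38.4%, 40.8% and 39.7%, and 32.5% and 32.0% in the same order of comparisons. With no scaling factors the first kinase count was 1 higher and 4 lower, and the next was 5 higher and 1 lower. Pak1 fell by 1.73 in HER2CA day 15 (SE 0.0962, edgeR adjusted p = 3.77e-10) and was higher by 1.03 in the 4OH-TAM-labelled libraries than there (SE 0.0963, adjusted p = 1.1e-07). Camk2d did the reverse, by 0.96 (SE 0.0753, adjusted p = 1.79e-08) and −0.85 (SE 0.075, adjusted p = 5.77e-08). In gliomaspheres the mitotic kinases led: Plk1 went from 1.88 and 1.81 CPM in controls to 42.8 and 45.9 CPM (log2 fold change 4.58, SE 0.143, adjusted p = 2.59e-12; 4.53 without library B), and Aurkb, which acts on vimentin and GFAP in dividing cells, from 0.768 and 0.618 CPM to 21.04 and 21.2 CPM (log2 fold change 4.91, SE 0.2, adjusted p = 2.81e-11; 4.91 without library B).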
